A study of Mus musculus with 33 samples.

Results

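Conventional CD4+ T cells, which lack the transcription factor Foxp3, were compared between the spleens of tolerant and naive mice by bulk RNA-Seq. The comparison comprised 6 of the 33 libraries of the series, 3 labelled SP/Tolerant-CD4+ and 3 labelled SP/Naïve-CD4+, and all genes counted in them. Both groups were male DEREG mice on the C57BL/6 background, a strain in which a transgene driven by the Foxp3 promoter makes EGFP and the receptor for diphtheria toxin, so that CD4+ cells without GFP could be sorted as Foxp3- cells. Tolerant mice carried porcine neonatal islet cell clusters (NICC, 4000 IEQ) under the renal capsule, had received MR-1, an antibody to CD154, at 500 µg on days 0, 2, 4 and 6 and CTLA4-Fc at 500 µg on day 0, and were killed at day 100. Naive mice had neither transplant nor treatment, so that the comparison does not separate the islet graft from the drugs, and "naive" refers to the mouse and not to the phenotype of the cell. The age of the mice was not given in the sources used here, and each library was amplified from a small number of sorted cells.

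A CD4+ T cell that meets its antigen makes IL-2 and the α chain of its receptor, and needs signals from CD28, which CTLA4-Fc keeps from its ligands CD80 and CD86, and gives help through CD154, which MR-1 blocks. Resting T cells hold little RNA and few ribosomes, and both increase when the cells are activated. Foxp3+ Tregs differ from conventional T cells in that they carry the IL-2 receptor α chain at all times. The comparison asked how the conventional T cells of mice with a long-accepted xenograft differed from those of untreated mice.

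The sorted cells had the markers of CD4+ T cells in every library, and all 16 genes of the T cell identity list were detected in each of the 6. Cd4 itself measured 268, 426 and 229.6 CPM in the naive and 239.8, 220.3 and 253 CPM in the tolerant libraries (CPM, counts scaled to library size, here with the TMM factors of edgeR). The groups overlapped (log2 fold change -0.37 ± 0.65 (SE), adjusted p = 0.969). Foxp3 was low at 8.2, 0.317 and 0.392 CPM in the naive and 0.456, 1.5 and 5.15 CPM in the tolerant libraries, and the EGFP sequence had no count in any of the 6. Platelet and granulocyte markers (Pf4, Ppbp, S100a8, S100a9) had no count either.

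Between 2929377 and 4602521 read pairs were counted on genes per library. A gene without reads could still have been present at the level of 3 counts, which was 0.652 to 1.02 CPM before TMM scaling (counting error only). Naive library 2 stood apart, with 20097 genes detected against 12978 to 15147 in the other 5, 37.7% of read pairs outside annotated genes against 23.4% to 32.6%, and 11.2% of counts on ribosomal protein genes against 3.85% to 8.14%. Its Spearman correlation with the other 5 libraries was 0.709 to 0.7495 over 10422 genes, while the 3 tolerant libraries correlated at 0.860 to 0.9015 with each other. Naive libraries 1 and 3 correlated at 0.792 with each other. With the tolerant libraries, naive library 1 correlated at 0.825 to 0.852 and naive library 3 at 0.785 to 0.815. By this measure the naive libraries did not form a group apart from the tolerant ones. Values without naive library 2 are given for the counts of calls, for the calls that were lost without it and for several list medians. The methods describe pools of several mice per library but too few naive mice for 3 separate pools, so that the p-values measure the spread between these libraries, which may be in part technical.

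Of 25347 genes tested, 27 (0.107%) differed between tolerant and naive cells at an adjusted p under 0.05 (quasi-likelihood test of edgeR in a model of all 33 libraries, p-values adjusted by Benjamini and Hochberg). Of these, 4 were higher in tolerant cells (0.0158%) and 23 were lower (0.0907%), while DESeq2 called 41 higher and 41 lower. The 4 higher genes were Il2ra, Penk, Fgl2 and Shisa5. The 23 lower genes included 12 that encode ribosomal proteins of the cytosol, the nuclear RNA Malat1, Tmsb4x, which encodes an actin-binding protein, the predicted gene Gm10800, and 8 genes whose reads came mainly from 1 or 2 naive libraries. With p under 0.01 and an absolute log2 fold change over 1.5, without adjustment, 154 genes were higher (0.608%) and 185 lower (0.73%). The 3 tolerant and 3 naive libraries did not overlap for 1127 genes that were higher (4.45%) and 1313 that were lower (5.18%), and these shares are the background for the counts given for gene lists. Over all genes tested the median log2 fold change was -0.23, and over the 2301 genes with a mean of at least 100 CPM it was -0.07. The count of 27 ranged from 19 to 40 when each library was left out in turn, and without naive library 2 it was 20, of which 12 were among the 27. Fitted on the 6 compared libraries only, the same test kept 1 gene, Malat1, of the 27.

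**Figure D1:**
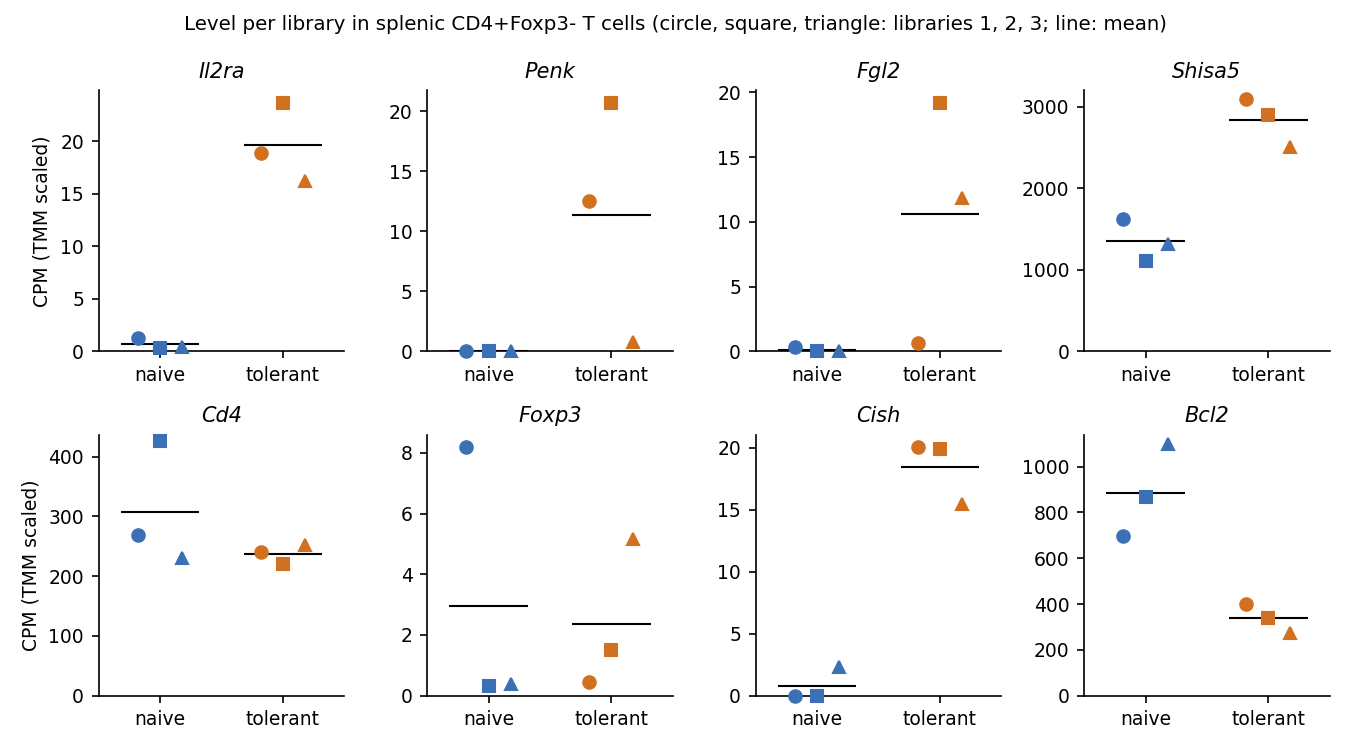
Level of 8 genes in each library of splenic CD4+Foxp3- T cells, in TMM-scaled CPM on linear axes that start at 0. Points are libraries and lines are means of 3. Il2ra, Penk, Fgl2, Shisa5 and Cish are higher in all 3 tolerant libraries and Bcl2 is lower, while Cd4 and Foxp3 overlap.

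Il2ra (ENSMUSG00000026770, chr2:11642807-11693193, GRCm38), which encodes the α chain (CD25) that gives the IL-2 receptor its high affinity, measured 1.31, 0.317 and 0.392 CPM in the naive and 18.9, 23.7 and 16.2 CPM in the tolerant libraries. Every tolerant library lay above every naive library, and the naive libraries held 4, 1 and 1 read pairs. The means were 19.6 ± 3.77 (SD, n = 3) for tolerant and 0.674 ± 0.554 (SD, n = 3) for naive cells in CPM, and the fitted difference was 27.1-fold (log2 fold change 4.76 ± 0.67 (SE), adjusted p = 1.2e-07). The call held without each library in turn, with adjusted p-values of at most 8.51e-06, and was lost only in the fit of the 6 compared libraries (adjusted p = 0.453). The tolerant level remained far below that of Tregs of the same organ, which held 285 to 609 CPM in the 9 libraries of splenic Tregs.

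The region around the start of Il2ra is shown because this gene had the smallest p-value of the 4 higher calls. The RefSeq window on GRCm38.p6 (chr2:11642542-11642841, plus strand) runs from 250 bases before to 50 bases after the start, and the capitals mark the match to an NF-kB motif (GGGA and CC with 4 bases between them), which was found in 20.73% of 32851 promoter windows searched on both strands. No match to the STAT motif TTCNNNGAA, present in 8.298% of windows, fell in these 300 bases.

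Il2ra: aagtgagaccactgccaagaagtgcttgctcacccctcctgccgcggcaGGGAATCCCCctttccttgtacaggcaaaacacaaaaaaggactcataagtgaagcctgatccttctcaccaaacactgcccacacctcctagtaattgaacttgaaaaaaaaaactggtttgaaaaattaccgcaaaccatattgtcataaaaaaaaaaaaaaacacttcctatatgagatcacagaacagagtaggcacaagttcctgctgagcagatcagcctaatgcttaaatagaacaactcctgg

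Partners and targets of the receptor were measured beside it. Cish, a feedback inhibitor induced through STAT5, measured 0, 0 and 2.35 CPM in the naive and 20.1, 19.9 and 15.5 CPM in the tolerant libraries, with no overlap, and did not pass the adjustment (log2 fold change 4.55 ± 1.30 (SE), adjusted p = 0.259). Il2rb, the β chain shared with the IL-15 receptor, gave 33.5, 37.1 and 16.8 CPM against 52, 95.2 and 64.9 CPM, and Myc, a driver of growth, gave 24.3, 8.23 and 17.6 CPM against 78, 49.3 and 36.3 CPM. Both were higher in all 3 tolerant libraries, with adjusted p-values of 0.692 and 0.692. The γ chain Il2rg, at 982, 417 and 672 CPM against 1177, 677 and 925 CPM, overlapped. Bcl2, the survival factor maintained by IL-7 and IL-2, went the other way, with 695, 866 and 1097 CPM against 400.1, 340.1 and 273 CPM and no overlap (log2 fold change -1.39 ± 0.38 (SE), adjusted p = 0.166). Of the 23 genes of early activation and the IL-2 receptor, 1 was called (Il2ra), 5 were higher and 1 was lower without overlap, and the median log2 fold change was 0.31, or 0.17 without naive library 2. Cd69, Tnfrsf9, Irf4, Socs1, Socs2 and Socs3 had log2 fold changes between -0.04 and 0.42 and overlapped.

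Penk (ENSMUSG00000045573, chr4:4133531-4138819), the precursor of the opioid enkephalin peptides, had no read pair in any naive library and 55, 83 and 3 read pairs in the tolerant libraries. These counts amount to 12.5, 20.7 and 0.773 CPM. The first 2 tolerant libraries were well above the limit of detection, and the third lay at it. Against the floor of 3 counts per naive library, Penk was at least 10.9-fold higher in tolerant cells (adjusted p = 0.000343), and at least 6.42-fold without tolerant library 2. The call held in all 6 fits without 1 library and by DESeq2 (adjusted p = 0.000662), but not with edgeR's bias-adjusted quasi-dispersion (0.395), with a stricter filter that required 10 counts in 3 or more libraries (0.131) or among the compared libraries only (0.449). The other opioid genes were scarce. Pomc measured 5.91, 0.317 and 4.31 CPM against 0, 2.49 and 0 CPM and the receptor gene Oprm1 1.64, 0.633 and 0 CPM against 6.15, 5.98 and 0.515 CPM, both overlapping, and of the 6 genes on the opioid list only Penk was called.

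Fgl2 (ENSMUSG00000039899, chr5:21372642-21378374), a fibrinogen-like protein that lymphocytes secrete and myeloid cells carry on their membrane, had 1 read pair in the naive group and 3, 77 and 46 in the tolerant libraries. In CPM the values were 0.328, 0 and 0 against 0.684, 19.2 and 11.8. The increase came from tolerant libraries 2 and 3, and library 1 stood only just above the naive libraries. From the pooled counts the ratio was 89.8, with an exact 95% counting interval of 15.8 to 3576 (log2 fold change 6.08 ± 1.27 (SE), adjusted p = 0.00461, which depends on the prior count). This ratio rested on 1 naive read pair and became 51.9 without tolerant library 2, 57.4 without naive library 2 and 136 without tolerant library 1. Without naive library 1, which held that read pair, Fgl2 was at least 9.95-fold higher than the naive floor. The call was lost without naive library 2 (adjusted p = 0.0655), without tolerant library 2, with the bias-adjusted quasi-dispersion, with the stricter filter and among the compared libraries only (0.542), and held by DESeq2 (0.0185). Fgl2 lies within Ccdc146 on the opposite strand, and the reads were counted without strand. Ccdc146 had 3 read pairs in naive library 2 and none in the other 5 libraries, and its part in the Fgl2 values was not tested.

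The promoter of Fgl2 is shown because matches to 2 motifs of inducible factors fell close to its start. Capitals mark a match to the STAT motif TTCNNNGAA that begins 36 bases before the start and a match to the AP-1 motif TGANTCA, found in 7.808% of windows, that begins 16 bases before it. The 100 bases are chr5:21372623-21372722, plus strand.

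Fgl2: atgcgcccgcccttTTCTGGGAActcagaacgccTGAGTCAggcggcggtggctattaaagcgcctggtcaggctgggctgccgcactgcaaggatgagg

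Shisa5 (ENSMUSG00000025647, chr9:109038565-109057777), which encodes a membrane protein of the endoplasmic reticulum linked to apoptosis, was the only abundant gene among the higher calls. It measured 1619, 1105 and 1323 CPM in the naive and 3099, 2900 and 2509 CPM in the tolerant libraries, so that the groups were clearly apart. The means were 2836 ± 300.3 and 1349 ± 258 CPM (SD, n = 3), a 2.1-fold difference (log2 fold change 1.07 ± 0.26 (SE), adjusted p = 0.0387). This call stood close to the threshold and was kept in 1 of the 6 fits without 1 library, in which the log2 fold change ranged from 0.95 to 1.18 and the adjusted p reached 0.534 without naive library 2. The call held by DESeq2 (adjusted p = 0.0215) and was lost in edgeR's likelihood ratio test (0.626), among the compared libraries only (0.197), in a fit of the 24 libraries of spleen and graft (0.0842) and with the stricter filter.

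Tregs and myeloid cells express several of these genes, and their markers were therefore set beside them. Penk ranged from 63.9 to 468 CPM, Il2ra from 285 to 609 CPM and Foxp3 from 323 to 574 CPM in splenic Treg libraries, and Fgl2 from 13.8 to 257 CPM. In tolerant CD4+Foxp3- libraries 1, 2 and 3, Foxp3 stood at 0.456, 1.5 and 5.15 CPM. In the same order, Il2ra gave 18.9, 23.7 and 16.2 CPM, Penk 12.5, 20.7 and 0.773 CPM and Fgl2 0.684, 19.2 and 11.8 CPM. In naive libraries 1, 2 and 3, Foxp3 stood at 8.20, 0.317 and 0.392 CPM and Il2ra at 1.31, 0.317 and 0.392 CPM. Penk had no count in these naive libraries, and Fgl2 gave 0.328, 0 and 0 CPM. Of the 16 Treg genes 1 was called (Il2ra), and 3 were higher and 0 lower without overlap, while Ikzf2, which encodes Helios, gave 1657, 470.3 and 1156 CPM against 475, 685 and 736 CPM. The 21 macrophage and dendritic cell markers summed to 282 to 676 CPM in naive and 309 to 474 CPM in tolerant libraries, with 0 calls. Among them Cd68, at 0, 0.633 and 0 CPM against 15.3, 18.7 and 3.35 CPM, and Itgax, which encodes CD11c, at 0.328, 0.95 and 0 CPM against 6.38, 15.2 and 10 CPM, were higher without overlap, Lyz2 had reads in tolerant library 3 at 11.8 CPM, and Csf1r and C1qa were below 1 CPM in every library. The part of such cells in the higher calls was not tested beyond these values, and in bulk samples fewer cells of a type and less RNA per cell cannot be told apart.

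**Figure D2:**
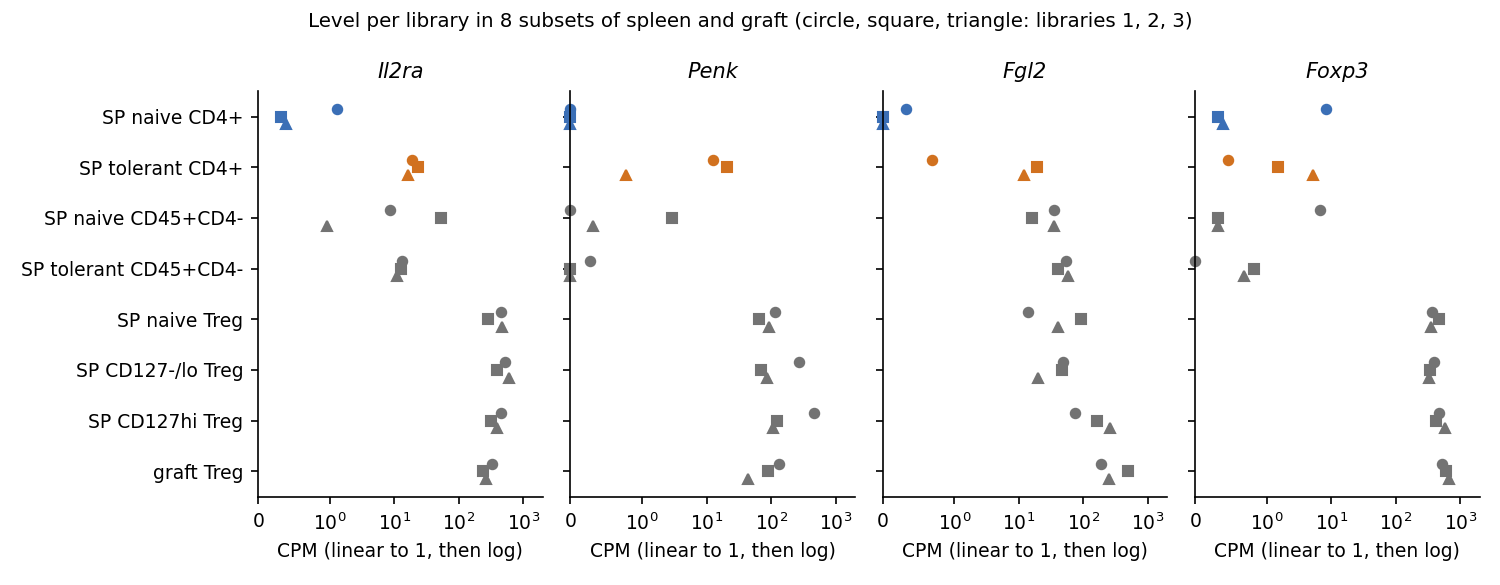
Level of Il2ra, Penk, Fgl2 and Foxp3 in each library of 8 subsets of spleen and graft, in CPM on an axis that is linear from 0 to 1 and logarithmic above. Tolerant CD4+Foxp3- cells (orange) lie above naive ones (blue) for Il2ra, Penk and Fgl2 and below the Treg subsets for Il2ra, Penk and Foxp3.

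Further genes had no count in naive cells and reads in all tolerant libraries without passing the adjustment, and these were chosen after their values were seen. Exactly 5 genes had no count in the 3 naive libraries and at least 10 CPM in each tolerant library, and 0 genes showed the reverse. They were Zfp28 and Zfp3, which encode zinc finger proteins, Spin2c of the spindlin family, Tti2, a cochaperone of PI3K-related kinases, and Zc4h2. Zfp28 gave 13.2, 28.9 and 22.1 CPM in tolerant libraries, at least 20.7-fold higher than the naive floor (adjusted p = 0.0517), and the bounds of the other 4 were between 15.4 and 19.6, with adjusted p-values from 0.0755 to 0.442. Serpina3g, a serpin that inhibits cathepsins, was present in both groups at 1.97, 2.53 and 3.92 CPM against 15.5, 29.2 and 38.6 CPM (adjusted p = 0.0936), and Dock9, an exchange factor for Cdc42, gave 4.92, 3.17 and 0.392 CPM against 59.7, 69.5 and 26.3 CPM (adjusted p = 0.187).

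Ribosomal protein genes made up 12 of the 23 lower calls. Ribosomal proteins form the small (Rps) and large (Rpl) subunits, and their mRNAs begin with a pyrimidine-rich stretch through which their translation is controlled. Of 82 such genes tested, 12 were called lower and 0 higher, against 0.0907% of all genes called lower. The 12 were Rps15a, Rps19, Rps23, Rps24, Rps27, Rps28 and Rps29 of the small subunit and Rpl26, Rpl32, Rpl38, Rpl39 and Rpl41 of the large subunit. All 12 separated the groups without overlap. Of the 78 with a mean of at least 100 CPM, all 78 had a lower mean in the fit, with log2 fold changes from -1.67 to -0.01 and a median of -1.005, and 47 of 78 did not overlap, against 5.18% of all genes.

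Rps15a had the smallest p-value after Rps27 and measured 1173, 3946 and 2444 CPM in the naive and 835, 768 and 776 CPM in the tolerant libraries. The tolerant libraries were nearly equal, and the naive ones differed widely (log2 fold change -1.67 ± 0.29 (SE), adjusted p = 0.000103). Rps27 gave 4289, 10108 and 6750 CPM in the naive and 3304, 2530 and 2441 CPM in the tolerant libraries (log2 fold change -1.35 ± 0.22 (SE), adjusted p = 2.3e-05). Rps19 gave 3135, 7477 and 5060 CPM in the naive and 2904, 1365 and 2072 CPM in the tolerant libraries, so that naive library 1 and tolerant library 1 lay close to each other (log2 fold change -1.31 ± 0.25 (SE), adjusted p = 0.000812). Rpl32, the large subunit gene with the smallest p-value, gave 1450, 3569 and 2456 CPM in the naive and 1098, 636 and 848 CPM in the tolerant libraries (log2 fold change -1.53 ± 0.32 (SE), adjusted p = 0.00437). Across the 78 genes the median level was 629.8, 1187 and 922 CPM in naive libraries 1, 2 and 3 and 588, 397 and 495 CPM in tolerant libraries 1, 2 and 3. Naive library 1 thus stood close to tolerant library 1, and naive library 2, which stands apart in other measures, was the highest.

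The calls depended on that library. Without naive library 2, 1 of the 78 genes was called (Rps27, adjusted p = 0.00975), while 77 of 78 still had a negative log2 fold change, with a median of -0.73. The number called was 19 without naive library 1, and 8 without naive library 3. Leaving out tolerant library 1, 2 or 3 gave 7, 2 and 4 called genes. The number was 0 by edgeR's likelihood ratio test, with the stricter count filter and in the fit of the compared libraries only, where 78 of 78 were again lower with medians of -1.005, -1.12 and -1.08. Many ribosomal protein genes have processed pseudogenes of near-identical sequence, to which their reads may be assigned, so that single values are uncertain. Tpt1, at 1209, 2492 and 1790 CPM against 901, 696 and 866 CPM (adjusted p = 0.0768), and Tmsb10, at 1473, 2998 and 2601 CPM against 1228, 727 and 1159 CPM (adjusted p = 0.0893), did not pass the test and were named after their values were seen. By summed exon length, the shortest 767 of the 2301 genes with a mean of at least 100 CPM had a median log2 fold change of -0.11, or -0.04 without the ribosomal protein genes, and the longest 767 had -0.13. The share of genes with a negative log2 fold change was 52.6% among the shortest without the ribosomal protein genes and 60.2% among the longest.

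**Figure D3:**
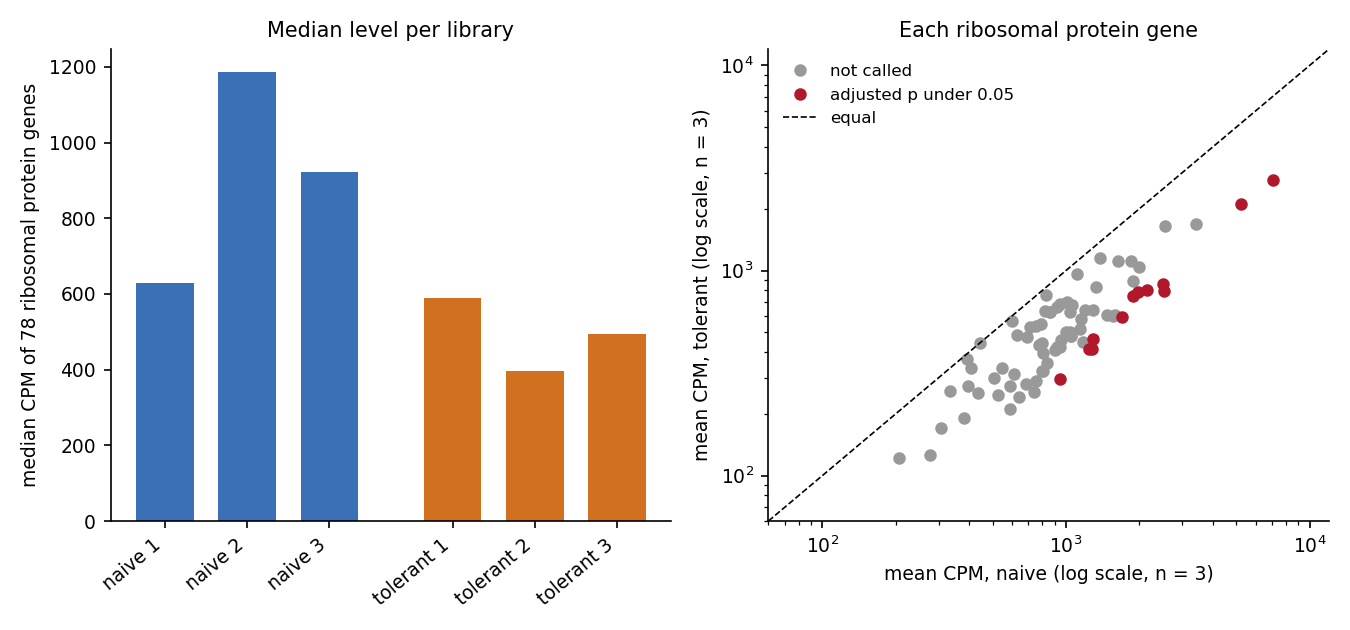
Left, median CPM of the 78 ribosomal protein genes with a mean of at least 100 CPM, 1 bar for each library. Right, mean CPM of each of these genes in naive (horizontal) and tolerant (vertical) cells on log scales, with the 12 called genes in red. All points lie below or on the line of equal levels, and naive library 1 and tolerant library 1 have similar medians, at 629.8 and 588 CPM.

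The starts of 4 called ribosomal protein genes are shown because these 4 hold a pyrimidine run at the start. A run of at least 8 C or T touching the 5 bases on either side of the start was found in 4 of 10 called ribosomal protein genes with a RefSeq window (40%), in 25 of 61 of all ribosomal protein genes (40.98%) and in 11.35% of 27025 genes. Capitals mark the run in the 100 bases around the start (GRCm38.p6). The windows are chr3:90213599-90213698, minus strand for Rps27, chr7:118116098-118116197, minus strand for Rps15a, chr14:24490628-24490727, plus strand for the first window of Rps24 and chr11:114668530-114668629, plus strand for Rpl38.

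Rps27: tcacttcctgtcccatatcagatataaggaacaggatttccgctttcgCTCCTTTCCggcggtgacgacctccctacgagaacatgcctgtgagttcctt

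Rps15a: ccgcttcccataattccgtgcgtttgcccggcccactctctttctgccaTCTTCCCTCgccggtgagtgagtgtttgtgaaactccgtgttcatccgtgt

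Rps24: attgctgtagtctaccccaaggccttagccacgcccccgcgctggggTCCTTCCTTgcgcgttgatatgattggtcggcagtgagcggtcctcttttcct

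Rpl38: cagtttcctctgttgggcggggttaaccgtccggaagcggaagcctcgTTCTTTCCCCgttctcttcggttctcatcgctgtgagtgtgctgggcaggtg

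Malat1, a long noncoding RNA retained in the nucleus, was the gene with the smallest p-value and the most abundant of those called. It measured 46089, 47470 and 51703 CPM in the naive and 24820, 17100 and 12908 CPM in the tolerant libraries. The 3 naive libraries were within a narrow range, and every tolerant library was lower. The means were 48420 ± 2925 for naive and 18276 ± 6042 for tolerant cells in CPM (SD, n = 3), a 2.65-fold difference (log2 fold change -1.41 ± 0.15 (SE), adjusted p = 8.83e-14). The call held without each library in turn and among the compared libraries only (adjusted p = 0.0346), and was lost in the likelihood ratio test (0.556), by DESeq2 (0.151), with the stricter count filter (0.133) and in the fit of the 24 libraries of spleen and graft (0.0752). Neat1, another nuclear RNA, measured 218, 276 and 215 CPM against 238, 401 and 333 CPM, with a log2 fold change of 0.46 (adjusted p = 0.775).

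Tmsb4x, thymosin β4, which binds actin monomers, gave 24235, 37431 and 31765 CPM in the naive and 19682, 13143 and 19947 CPM in the tolerant libraries, with no overlap and the smallest fold change of all calls (log2 fold change -0.82 ± 0.14 (SE), adjusted p = 3.44e-05). Its call held without each library in turn and was lost in the likelihood ratio test (adjusted p = 0.644), by DESeq2 (0.527), in the fit of 24 libraries (0.282), among the compared libraries only (0.262) and with the stricter filter. Gm10800, a predicted gene, overlapped between groups at 1066, 5949 and 2241 CPM in the naive and 279, 1507 and 691 CPM in the tolerant libraries, and naive library 2 was its highest (log2 fold change -1.90 ± 0.43 (SE), adjusted p = 0.0201). Its call was lost without tolerant library 1 (adjusted p = 0.121), by DESeq2 (0.836), in the likelihood ratio test (0.621), in the fit of 24 libraries (0.581), among the compared libraries only (0.287) and with the stricter filter. Without naive library 2 the log2 fold change of Gm10800 was -1.001.

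The remaining 8 lower genes had reads in 1 or 2 naive libraries, or were high in 1, and were at or near 0 elsewhere. B cell genes formed the largest part. Ebf1, a transcription factor of the B lineage, gave 13.1, 45.6 and 0 CPM against 0.912, 0.498 and 0 CPM, Ms4a1 (CD20) gave 35.4, 0.317 and 0.392 CPM against 0.456, 1.5 and 0 CPM, and the λ light chain genes Iglc1 and Iglc2, members of a family whose copies can share reads, gave 0, 33.6 and 0 CPM against 0, 0 and 0 CPM and 37.1, 15.2 and 0 CPM against 0, 0 and 3.86 CPM. Gm12158, at 7.87, 12.4 and 0 CPM against 0, 0 and 0 CPM, lies within Ebf1 on the opposite strand, so that without strand its reads cannot be told apart from those of Ebf1. Gzma, the granzyme A of cytotoxic cells, was seen in naive library 3 only, at 65.8 CPM, and Hbb-bs, a β-globin, in naive library 1 only, at 177 CPM. Wfdc17, a protease inhibitor of myeloid cells, gave 5.25, 18.1 and 0 CPM against 0, 0 and 0 CPM. None of these 8 separated the groups, and their highest value in a tolerant library was 3.86 CPM. Against the floor of 3 counts per tolerant library, Gm12158, Wfdc17, Iglc1, Gzma and Hbb-bs were at least 9.18-fold, 10.6-fold, 15.2-fold, 29.9-fold and 80.4-fold lower. Without naive library 2 the bounds were 3.57-fold for Wfdc17 and 5.36-fold for Gm12158, and the log2 fold change of Ebf1 was -3.67 (adjusted p = 0.00324). The call on Gm12158 was lost without naive library 2 (adjusted p = 0.155) and without any 1 tolerant library. The adjusted p-values of the 8 ran from 2.3e-05 to 0.0377.

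Each call on a gene seen in 1 naive library ended when that library was left out. The log2 fold change became 0 for Iglc1 without naive library 2, for Gzma without naive library 3 and for Hbb-bs without naive library 1, and turned to 0.77 for Ms4a1 without naive library 1. The markers of the cells involved were set beside them. The 13 B cell markers summed to 440.5 to 605 CPM in naive and 581 to 709.7 CPM in tolerant libraries, most of it from Ighm, which was higher in tolerant cells at 382, 344 and 423 CPM against 569.9, 491 and 654 CPM (adjusted p = 0.692). Cd79b gave 44.3, 0.317 and 0 CPM against 0, 0 and 5.92 CPM, and Cd79a was at most 2.95 CPM. The erythroid and platelet list summed to 319 CPM in naive library 1 and at most 1.37 CPM elsewhere, with Hba-a1 at 64.6 CPM in that library. The 15 markers of CD8, NK and innate T cells summed to 306 to 487 CPM in naive and 309 to 493 CPM in tolerant libraries, with Ncr1 at 0 in 4 of the 6 libraries. Of these 15, Gzma was the 1 call, and 2 were higher and 2 lower in tolerant cells without overlap. The higher members were Nkg7 at 71.2, 88 and 47.4 CPM against 167, 173 and 236 CPM (adjusted p = 0.692) and Trdc, the constant segment of the T cell receptor δ chain, at 0, 0 and 0 CPM against 12.1, 1.5 and 6.44 CPM (adjusted p = 0.467). The lower members were Klrb1c, which encodes the NK1.1 receptor, at 17.4, 50.4 and 23.1 CPM against 5.93, 7.48 and 0.258 CPM (adjusted p = 0.692) and Zbtb16, a regulator of innate T cells, at 0.328, 0.633 and 0.784 CPM against 0.228, 0 and 0 CPM (adjusted p = 0.732). For scale, every CD45+CD4- library of the spleen held at least 553 CPM of Ebf1 and 878 CPM of Ms4a1. The part of admixed cells in these calls was not tested further.

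**Figure D4:**
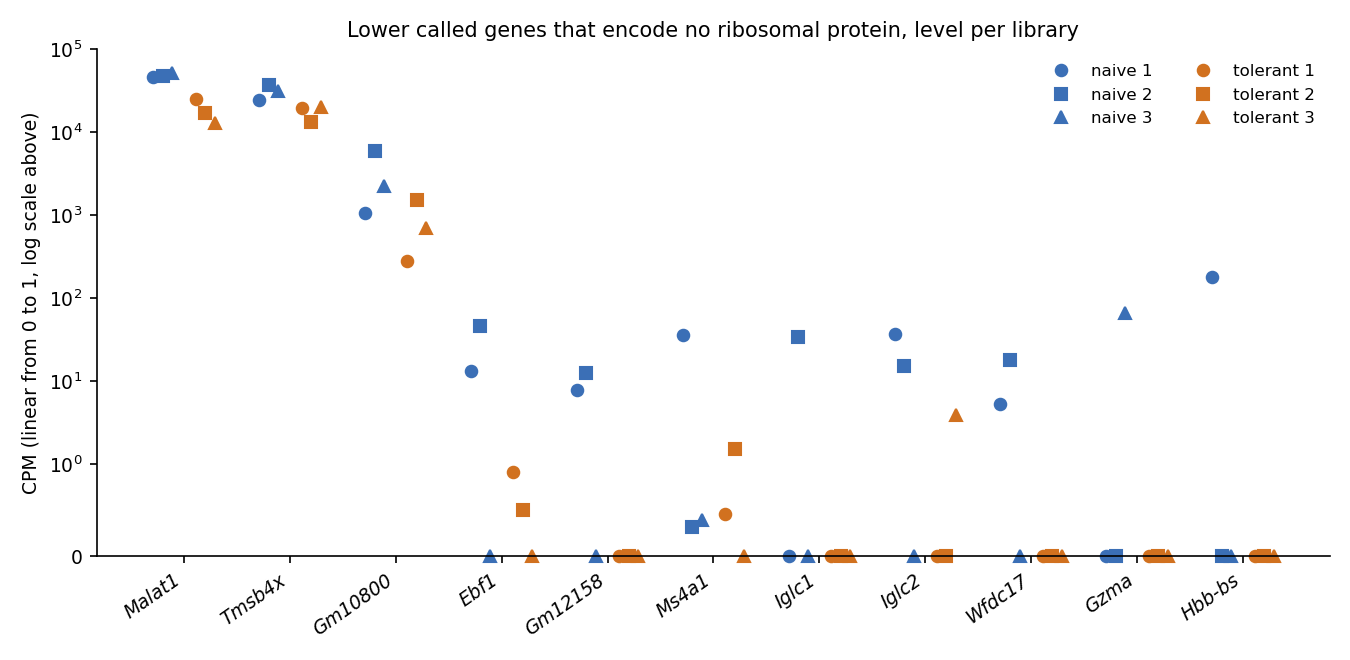
Level per library of the 11 lower called genes that encode no ribosomal protein, in CPM on an axis that is linear from 0 to 1 and logarithmic above. Malat1 and Tmsb4x separate naive (blue) from tolerant (orange) libraries, while the other 9 overlap and most have reads in 1 or 2 naive libraries only, such as Hbb-bs at 177 CPM in naive library 1.

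The T cell receptor complex and its signalling genes were detected in full in every library, and single members leaned in both directions. Of 16 T cell identity genes 0 were called, 4 were higher and 3 lower without overlap, and the median log2 fold change was 0.34. Lat, the adaptor downstream of the receptor, gave 528, 479 and 667 CPM against 875, 1155 and 928 CPM, and the kinase Lck gave 1820, 1526 and 1466 CPM against 2265, 2901 and 2194 CPM. Trbc2, a constant region of the β chain that shares sequence with Trbc1, gave 1451, 1274 and 1608 CPM against 2442, 1868 and 2158 CPM. By contrast Cd3d, a CD3 chain, gave 2527, 2525 and 2646 CPM against 2025, 1326 and 1663 CPM, and Bcl11b, a transcription factor of T cell identity, gave 340.3, 402 and 364 CPM against 278, 213 and 216 CPM. Among 19 genes of TCR signalling 0 were called, and 3 were higher and 4 lower without overlap (median -0.11, or -0.02 without naive library 2), the latter being Themis, Prkcq, Malt1 and Rasgrp1. None of these genes had an adjusted p below 0.692.

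Most genes of resting T cells and lymphoid homing had negative log2 fold changes. Of 16, 0 were called, 14 were below 0 (median -0.49, or -0.26 without naive library 2), and 5 were lower and 0 higher without overlap, against 5.18% and 4.45% of all genes. Lef1 and Foxp1, transcription factors of quiescent T cells, gave 539, 757 and 517 CPM against 486, 337 and 402 CPM and 796, 999 and 781 CPM against 565, 641 and 559 CPM. Bach2, a repressor of effector programmes, gave 353, 280.0 and 315 CPM against 166, 213 and 132 CPM. Dapl1 and Igfbp4, which mark naive T cells, were also lower, the former at 809, 1241 and 679.8 CPM against 460.3, 321 and 639 CPM. The homing receptor Ccr7 and the IL-7 receptor Il7r overlapped, with log2 fold changes of 0.27 and 0.07.

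Genes of memory and effector CD4 T cells did not move as a block. Of 22, 0 were called, 1 was higher and 4 lower without overlap (median -0.33, or -0.20 without naive library 2). Anxa1, the anti-inflammatory annexin A1, passed the looser rule, with 0, 0.633 and 0.784 CPM against 14.8, 0.249 and 18.8 CPM, but its groups overlapped at tolerant library 2 (adjusted p = 0.538). Id2, a regulator of effector T cells, gave 581, 372 and 427 CPM against 955, 800.4 and 808 CPM. The lower members were Itgb1, S100a10, S100a11 and Prdm1, which encodes Blimp-1, with values for S100a10 of 1018, 1212 and 1204 CPM against 750.5, 488 and 797 CPM. Lineage regulators and cytokines of helper T cells, 20 genes, also had 0 calls (median 0.40, or 0.77 without naive library 2). The cytokine Tnf, at 14.4, 11.7 and 16.1 CPM against 26, 43.9 and 20.9 CPM, was higher without overlap. Stat3, Stat4 and Stat6, abundant members of this list, overlapped. Of 13 follicular helper genes 1 was higher (Cxcr4, 8.86, 0 and 6.27 CPM against 11.4, 15 and 15.7 CPM) and 1 lower (Slamf6, 1177, 1204 and 1069 CPM against 803, 1028 and 659 CPM) without overlap. The shares over all genes were 4.45% and 5.18%.

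Coinhibitory and anergy genes held single members without overlap in both directions, beside 4.45% of all genes higher and 5.18% lower. Of 14 coinhibitory and dysfunction genes 1 was called (Fgl2), 2 were higher and 1 lower without overlap. Cd160, an inhibitory receptor for HVEM, gave 16.4, 0 and 1.57 CPM against 39.4, 51.1 and 33.7 CPM, and Havcr2, which encodes TIM-3, gave 12.1, 0.633 and 0.392 CPM against 0, 0 and 0 CPM (adjusted p = 0.529). Pdcd1, Tigit and Ctla4 had log2 fold changes of 0.32, -0.07 and 0.38 and overlapped. Of 13 anergy genes 0 were called, 10 had a negative log2 fold change (median -0.11, or -0.05 without naive library 2), Izumo1r (folate receptor 4) was higher at 144, 95.6 and 139 CPM against 157, 335 and 182 CPM and Ikzf1 (Ikaros) lower at 672, 1010 and 863 CPM against 529, 549 and 556 CPM without overlap. Egr2, Egr3, Cblb and Rnf128, central to T cell anergy, had log2 fold changes of -0.90, -0.11, -0.04 and -0.59.

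The pathways that the treatment had blocked were measured at day 100. Of 13 genes 0 were called, and 2 were higher and 1 lower without overlap, against 4.45% and 5.18% of all genes. Cd40lg, which encodes CD154, gave 427, 297 and 443 CPM in the naive and 482, 312 and 354 CPM in the tolerant libraries, with a log2 fold change of -0.02 ± 0.67 (SE). Cd28 gave 863, 817 and 949 CPM against 804, 753 and 772 CPM, and the related costimulatory receptor Icos overlapped at 472, 143 and 512 CPM against 429, 404 and 362 CPM. Cd80, a ligand of CD28 and CTLA4, was higher at 1.31, 0.633 and 6.27 CPM against 7.98, 35.9 and 10.3 CPM, as was Relb, a subunit of NF-kB, at 18.7, 2.53 and 15.3 CPM against 31.7, 31.6 and 26.5 CPM, with adjusted p-values of 0.692 and 0.792.

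None of the members of the immediate early list and of both interferon lists was called. Of 18 immediate early genes, 4 were higher and 0 lower without overlap (median 0.18, or 0.67 without naive library 2), 7 had a negative log2 fold change, and the 4 were Junb, Dusp1, Dusp2 and Zfp36. Dusp2, a phosphatase of MAP kinases, gave 118, 44 and 43.5 CPM against 207, 242 and 180.0 CPM, and Junb, a subunit of AP-1, gave 23.3, 12.7 and 32.1 CPM against 53.6, 58.6 and 59.2 CPM. Of 22 type I interferon stimulated genes 3 were higher and 0 lower without overlap, 7 had a negative log2 fold change (median 0.44, or 0.15 without naive library 2), with Usp18 at 9.84, 43.1 and 10.2 CPM against 89.4, 45.3 and 75.7 CPM and Isg20 at 21, 0 and 18.8 CPM against 71.8, 23.7 and 37.1 CPM. Mx1 was higher mainly in tolerant library 1, with 0.656, 0.317 and 0.392 CPM against 45.1, 0.997 and 9.01 CPM. Of 20 genes of the IFN-γ response and antigen processing 4 were higher and 0 lower without overlap (median 0.45), among them the guanylate-binding proteins Gbp2, at 35.1, 28.8 and 35.3 CPM against 109, 46.1 and 57.9 CPM, and Gbp4, at 402, 165 and 425 CPM against 459, 533 and 445 CPM, and the class I gene H2-D1, at 1456, 1620 and 1592 CPM against 1955, 1786 and 2584 CPM. B2m overlapped, as did the summed levels of both interferon lists.

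Metabolic genes did not share a direction across pathways. The 24 nuclear genes of oxidative phosphorylation had 0 calls, 19 negative log2 fold changes (median -0.51), and 10 lower and 1 higher without overlap, against 5.18% and 4.45% of all genes. Cox6c, a subunit of cytochrome c oxidase, gave 836, 1434 and 1185 CPM against 547, 508 and 515 CPM (log2 fold change -1.14 ± 0.33 (SE), adjusted p = 0.259), and Uqcrb of complex III gave 960.1, 1196 and 1205 CPM against 716, 571 and 615 CPM. Sdhb of complex II was the exception, at 251, 229.9 and 225 CPM against 443, 346 and 328 CPM. Of the mitochondrially encoded genes, 12 of 12 had negative log2 fold changes (median -0.61), and 4 were lower without overlap. Among these mt-Nd1 gave 4157, 5793 and 8223 CPM against 3965, 3461 and 3835 CPM (adjusted p = 0.162), with naive library 1 again close to tolerant library 1. The 15 glycolytic genes had a median of 0.48 with 0 calls and 1 member without overlap, Gpi1, at 36.4, 49.1 and 47.4 CPM against 60.2, 73.5 and 63.6 CPM, while Ldha overlapped at 137, 156 and 434 CPM against 376, 147 and 336 CPM.

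Of 20 cell cycle genes tested, 0 were called and 2 were higher without overlap, Tyms at 16.7, 12.7 and 12.1 CPM against 31.5, 19.9 and 46.1 CPM and Mcm3 at 5.25, 0.95 and 6.27 CPM against 6.38, 19.4 and 13.6 CPM, and the median was 0.08. Of 14 genes of apoptosis and survival, Fas was higher at 170.0, 136 and 159 CPM against 200.4, 231 and 174 CPM and Bcl2 was lower, as given above, without overlap. Among 12 heat shock genes (median 0.14, or 0.46 without naive library 2) Dnaja1, at 248, 89.3 and 241 CPM against 375, 461 and 435 CPM, and Hsph1, at 28.5, 8.55 and 27.8 CPM against 40.6, 35.4 and 82.7 CPM, were higher without overlap. Of 16 chemokine receptor and adhesion genes, Ccr8 had no count in naive cells and 3.65, 10.2 and 12.9 CPM in tolerant cells, at least 8.6-fold higher than the floor (adjusted p = 0.226), and Ccr4 was lower at 7.22, 15.8 and 8.62 CPM against 4.56, 2.99 and 3.09 CPM. No gene of these 4 lists was called.

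**Figure D5:**
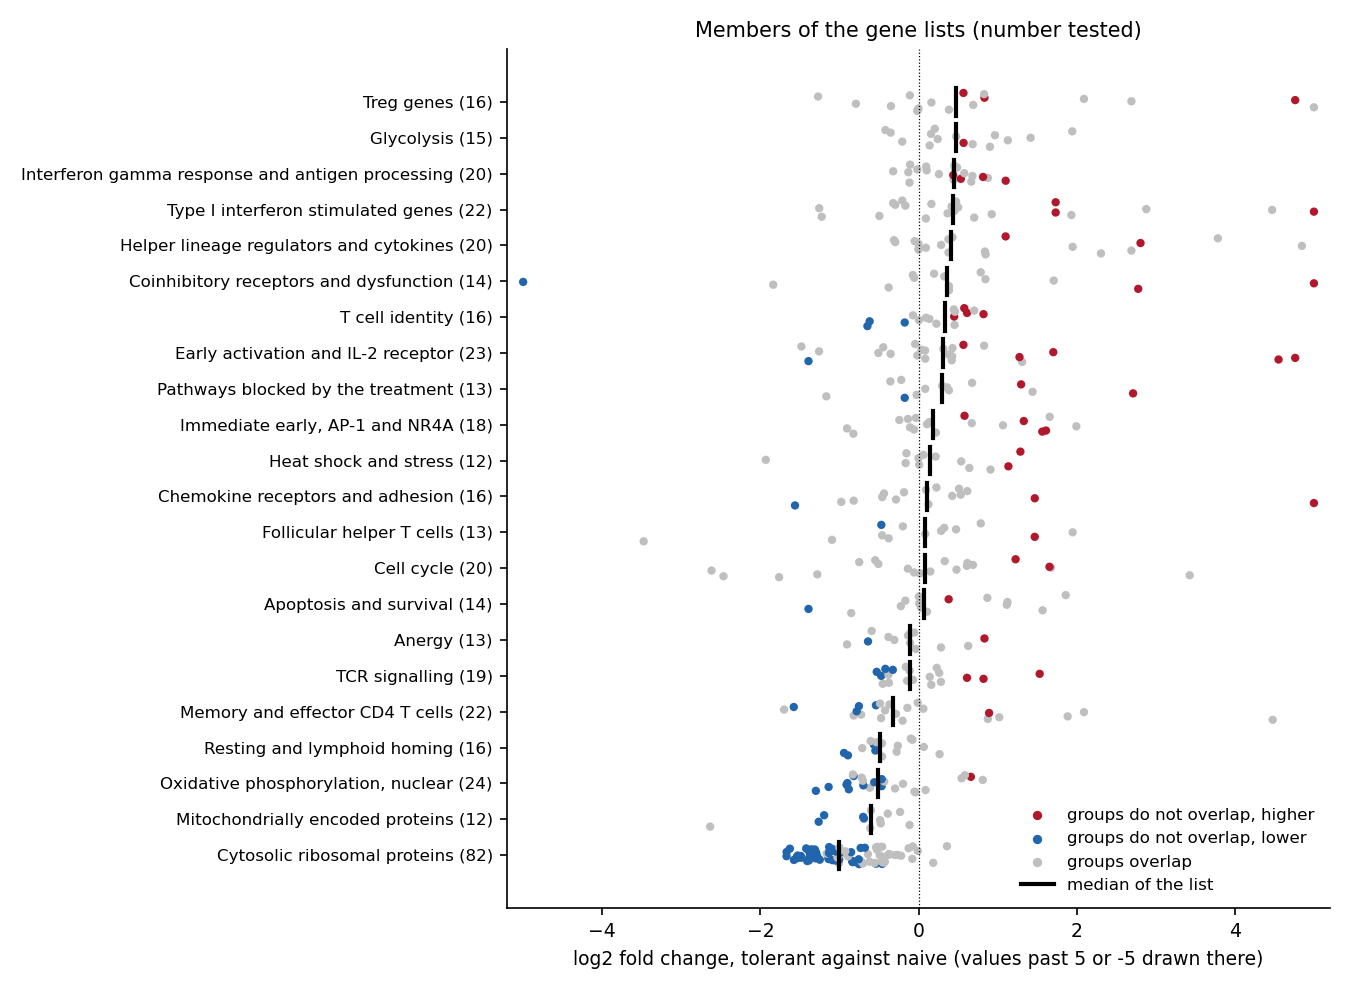
Log2 fold change of each tested member of 22 gene lists, tolerant against naive CD4+Foxp3- T cells, with the median of each list as a black line. Red and blue points are members whose 3 tolerant and 3 naive libraries do not overlap. The lists of other cell types, opioid genes and nuclear RNAs are not drawn. Ribosomal protein genes have a median of -1.002 and mitochondrially encoded genes of -0.61.

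The tolerant and naive CD45+CD4- cells of the spleen, 6 libraries from leukocytes depleted of CD4+ cells, allowed a test of whether the difference was the same in other leukocytes. For 12 of 25347 genes (0.0473%) the effect in CD4+Foxp3- T cells differed from that in CD45+CD4- cells at an adjusted p under 0.05 by the same test. Il2ra led, with 8.55, 52.8 and 0.966 CPM in the naive and 13, 12.9 and 10.9 CPM in the tolerant libraries of these cells, an effect difference of 5.52 on the log2 scale (adjusted p = 9.04e-06). In CD45+CD4- cells the tolerant libraries lay within the range of the naive ones, whereas in CD4+ T cells all tolerant libraries were higher. Penk had at most 2.93 CPM in any of the CD45+CD4- libraries and an effect difference of 11.05 (adjusted p = 0.000349), a size that depends on the prior count.

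For 4 further T cell genes the means of CD45+CD4- cells were lower in tolerant mice. Cd4 itself gave 11.3, 33.6 and 26.7 CPM in the naive and 13, 0 and 15.3 CPM in the tolerant libraries of these cells, with its highest value in naive library 2 and no count in tolerant library 2, and the part of residual CD4+ cells in these values was not tested. Cd40lg gave 14.7, 21.2 and 19.6 CPM in the naive and 0.276, 0 and 0 CPM in the tolerant libraries of these cells, against 427, 297 and 443 CPM against 482, 312 and 354 CPM in CD4+ T cells. Tnfrsf4, which encodes the costimulatory receptor OX40, gave 24.4, 14.7 and 23.8 CPM in the naive and 0, 9.62 and 0 CPM in the tolerant libraries of these cells. Izumo1r gave 16.5, 68.8 and 11.9 CPM in the naive and 11.9, 0.275 and 0 CPM in the tolerant libraries of these cells. Maf, a transcription factor of helper T cells, gave 13.7, 126 and 46 CPM in the naive and 3.59, 4.95 and 17 CPM in the tolerant libraries of these cells, where the groups overlapped. The effect differences of Cd40lg, Tnfrsf4, Izumo1r and Maf were 7.02, 3.24, 3.80 and 2.73 on the log2 scale, with adjusted p-values of 0.00024, 0.000983, 0.000983 and 0.0315. The other 6 were Ebf1, Iglc1, Ms4a1, Gzma, Hbb-bs and Hbb-bt, genes whose reads in CD4+ T cells came mainly from 1 or 2 naive libraries. For Fgl2, Shisa5, Malat1 and Rps15a the effect difference was 5.27, 1.03, -0.39 and -1.25 with adjusted p-values of 0.297, 0.596, 0.952 and 0.458, so that a difference between the cell classes was not shown for them. Malat1 measured 27661, 7525 and 22330 CPM in the naive and 6967, 9646 and 11823 CPM in the tolerant libraries of these cells. These calls depended on the CD45+CD4- libraries. Without their naive library 2, which held the highest Il2ra, Penk, Izumo1r and Maf of the 6, the calls on 6 of the 12 genes were lost. Il2ra then had an effect difference of 3.43 (adjusted p = 0.0641) and Penk of 8.57 (adjusted p = 0.533), and the adjusted p-values were 0.106 for Izumo1r, 0.613 for Maf, 0.0641 for Gzma and 0.111 for Hbb-bt. Without their naive library 3 the total was 24.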

How the data were processed

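Splenic CD4+GFP-DAPI- cells were sorted from DEREG mice, and bulk cDNA was made with SMART-Seq v4 and Nextera XT and sequenced on a NextSeq 500. The authors used Trim Galore for trimming and STAR for alignment to mm10 with EGFP added, and deposited raw counts of read pairs per Ensembl gene for each library in the layout of STAR gene counts, of which the column without strand was used. Rows for unmapped, multimapping, unassigned and ambiguous reads were left out of library sizes. Counts covered uniquely mapped reads, so that near-identical copies and overlapping genes are uncertain, and depth (2929377 to 4602521 read pairs on genes) set the floor of 3 counts. Intervals and floors cover counting error only.

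Genes reaching 1 CPM in any 1 library entered the test, and TMM factors and glmQLFit with glmQLFTest (edgeR 4.0.16, limma 3.58.1, R 4.3.3) were applied to all 33 libraries with 1 coefficient per group. The lymph node libraries in this model were sequenced on a MiSeq, and their naive mice were female. They share in the estimate of the spread, and the fit of the 24 libraries leaves them out. Benjamini-Hochberg adjustment was made over all 25347 genes. The difference in effect between CD4+ and CD45+CD4- cells was a contrast of the same model. The study's methods name edgeR's likelihood ratio test, and it was run as an alternative together with the bias-adjusted quasi-dispersion (chosen after seeing the data), RLE factors, no low-count filter, a stricter filter (10 or more counts in 3 or more libraries), only the compared libraries, the 24 libraries of spleen and graft, the replicate number as a block, DESeq2 1.42.0, and each compared library left out in turn. The script was tested on simulated data in which 200 of 25347 genes were changed. It recovered 65 of them, 5% of the 4-fold and 60% of the 16-fold changes, with 4 false calls. A gene that was not called may therefore still differ. Tables were handled in Python 3.11.15 with numpy 2.4.6, pandas 2.3.3 and scipy 1.17.1.

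The groups and the 30 gene lists were chosen with earlier results of these data known. Named genes were drawn from all called genes, the members of each list that passed the looser rule or did not overlap, up to 4 of the most abundant members per list, Cd4, Il2ra, Penk, Fgl2, Foxp3 and EGFP, and genes called in the difference of effects. The rule named up to 5 of the latter, and the other 7 were added. Further list members, Serpina3g, Dock9, Tpt1, Tmsb10, Ccdc146 and the 5 genes without reads in naive cells were named after their values were seen. Promoter windows came from RefSeq on GRCm38.p6, and gene positions from the GENCODE annotation of GRCm38. Some members of the lists are not reported here by name.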

Additional observations from a re-analysis of the deposited data

Results flagged for a closer look

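Genes whose contrast of tolerant with naive mice differed between CD4+Foxp3- T cells and CD45+CD4- cells are collected here. This contrast does not separate the islet graft from the drugs, and the part of residual or admixed cells in it was not tested. The difference between the cell classes was tested by edgeR's quasi-likelihood test, and 12 genes had an adjusted p under 0.05. Values are the log2 fold change in CD4+ T cells minus that in CD45+CD4- cells, and for genes with 0 counts in a group their size depends on the prior count.

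The difference was positive for 6 genes of T cells. It was 5.52 for Il2ra, 11.05 for Penk, 7.02 for Cd40lg, 3.24 for Tnfrsf4, 3.80 for Izumo1r and 2.73 for Maf. In CD4+ T cells themselves, Cd40lg, Tnfrsf4, Izumo1r and Maf were not called, with log2 fold changes of -0.02, 0.57, 0.83 and -0.14. Their means in CD45+CD4- cells were lower in tolerant mice. Without naive library 2 of the CD45+CD4- cells, Il2ra (adjusted p = 0.0641), Penk (0.533), Izumo1r (0.106) and Maf (0.613) no longer passed. For Cd40lg the CD4+ libraries overlapped, and 2 of the 3 tolerant CD45+CD4- libraries had no count. It was negative for 6 genes of other cell types, at -5.47 for Ebf1, -8.63 for Iglc1, -4.83 for Ms4a1, -8.71 for Gzma, -16.12 for Hbb-bs and -14.37 for Hbb-bt. The β-globin genes Hbb-bs and Hbb-bt are near-identical copies, and their reads in CD4+ T cells came from naive library 1. Gzma (adjusted p = 0.0641) and Hbb-bt (0.111) did not pass without naive library 2 of the CD45+CD4- cells.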

How the results depend on the processing

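The 27 genes that differed between tolerant and naive CD4+ T cells became 6 with edgeR's likelihood ratio test, 47 with the bias-adjusted quasi-dispersion, 44 without a low-count filter, 1 with at least 10 counts in at least 3 libraries, 1 with only the compared libraries, 14 with the 24 libraries of spleen and graft, and 82 with DESeq2. In the same order, the 4 higher genes became 3, 3, 9, 1, 0, 4 and 41, and the 23 lower genes became 3, 44, 35, 0, 1, 10 and 41. Beside the counts of 0, a p under 0.05 before adjustment was found for 1105 genes among the compared libraries and for 724 with the stricter filter. Of the 27 genes, 6, 20, 27, 1, 1, 13 and 14 were called under these settings, and 27 with RLE factors. With the replicate block 42 genes were called, 7 higher and 35 lower, among them all 27. Same-numbered libraries did not deviate together (r = 0.021, 0.038 and -0.007 over 7795 genes), so that the numbers were not taken to pair the libraries. A fit with the legacy quasi-dispersion, which was also intended, is the default of this edgeR version and therefore the fit reported.

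Leaving out 1 library at a time gave 19 to 40 genes, 4 to 7 higher and 13 to 35 lower, and 8 of the 27 genes were called in all 6 fits (Malat1, Il2ra, Ebf1, Rps27, Tmsb4x, Penk, Wfdc17 and Iglc2). For 18 of the 27 the highest adjusted p came without naive library 2. Without naive library 2, 9 of the 30 list medians moved by more than the spread between libraries. Those of the coinhibitory genes, from 0.35 to 0.06, and of the follicular helper genes, from 0.08 to -0.16, moved by less than it. The 339 genes of the looser rule became 120 with the stricter filter, 145 with only the compared libraries, and 200 to 325 without 1 library. The log2 fold change ran from -8.69 to 0 for Iglc1, from -9.58 to 0 for Gzma, from -5.44 to 0.77 for Ms4a1 and from -11.02 to 0 for Hbb-bs, the upper values being those without naive library 2, 3, 1 and 1.

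The 12 genes whose effect differed between CD4+ and CD45+CD4- cells became 5 with the likelihood ratio test, 7 with the bias-adjusted quasi-dispersion, 2 with the stricter filter, 6 with only the compared libraries, 3 with the 24 libraries, 19 with the replicate block, 54 with DESeq2, and 10 to 24 without 1 library. Without naive library 2 of the CD45+CD4- cells 11 were called, and 6 of the 12 were lost. The difference in effect of Ms4a1 ran from -6.13 to 0.11, and the difference in effect of Gzma from -9.29 to 0.28. The cause of these changes was not tested.

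Precision is limited by 3 libraries per group amplified from few cells, in which many genes had reads in some libraries only. The naive libraries correlated at 0.709 to 0.792 with each other against 0.860 to 0.9015 for the tolerant ones. Which mice entered which naive library is not given in the sources used here.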

Other observations

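The 9 plasma cell markers summed to 43.6, 49.4 and 73.7 CPM in naive and 34.0, 86.7 and 87.0 CPM in tolerant libraries, with 0 calls. Their median log2 fold change was -0.44, or 0 without naive library 2. The 10 granulocyte markers summed to at most 3.80 CPM in any library, with a median of -0.18, or 0 without naive library 2. The 4 nuclear long noncoding RNAs had a median of -0.47, or -0.15 without naive library 2, and Malat1 was the only one called. Naive library 2 had reads in 7 of the 9 plasma cell, 6 of the 10 granulocyte and 19 of the 21 macrophage and dendritic cell markers, against at most 4, 4 and 17 in the other libraries.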
